A study of Homo sapiens with 5 samples.

Results

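The Iroquois homeobox (IRX) family comprised 6 genes, IRX1, IRX2, IRX3, IRX4, IRX5 and IRX6, which were followed here through the differentiation of human embryonic stem cells (ESC) towards GnRH neurons. The members were taken by gene symbol, and each was 1 row of the count tables, so the family was 6 of the 33538 genes listed for D22, D24 and D26 and 6 of the 36601 genes listed for the earlier samples. IRX genes encode homeodomain transcription factors of the TALE class. In vertebrates they lie in a pair of clusters of 3 genes each, IRX1, IRX2 and IRX4 in the one and IRX3, IRX5 and IRX6 in the other, and the genes of a cluster are often transcribed in overlapping domains. In the early neural plate they mark territory behind the telencephalon, Irx3 opposes anterior factors such as Six3 at the border within the diencephalon, and in the spinal cord Irx3 takes part in dividing progenitors into dorsoventral domains.

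All cells came from WA09, an established human ESC line of wild-type genotype, and were measured by droplet single-cell RNA sequencing of transcript 3′ ends, in which each unique molecular identifier (UMI) stands for 1 captured molecule. D0 was the undifferentiated culture, and the dual SMAD inhibitors dorsomorphin and SB431542 (dSMADi) were given in every later sample. D5_dSMADi and D10_dSMADi were taken after 5 and 10 days of those inhibitors alone, whereas D5_XAV939 and D10_XAV939 also had XAV939, an inhibitor of Wnt signalling, at 10 µM. D22, D24 and D26 had dSMADi, then FGF8, a freeze and thaw of the progenitors, and at the end the Notch inhibitor DAPT, without XAV939.

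There was 1 library per condition, so no difference between conditions was tested and no p-value is given. The intervals are exact 95% intervals for counting error only, and they are too narrow where a few cells hold most of a gene's UMIs. After the filters on cells, the 3 late libraries kept 9523 (D22), 9107 (D24) and 11056 (D26) cells, and there were between 1008 and 2815 cells in each of the 5 libraries from D0 to D10. Median depth was between 7180 and 12179 UMIs per cell in the 3 late libraries and between 24290.5 and 69455.5 UMIs per cell from D0 to D10, where 5 tagged cultures had been pooled in 1 droplet run. At most 37 cell barcodes were shared between any pair of the D22, D24 and D26 libraries, and none within the pool. Levels are given as counts-per-million (CPM), the UMIs of a gene over the UMIs of all genes, both summed over cells. Levels of different genes are printed side by side but not ranked, since 3′ capture differs from gene to gene. The late samples are labelled neurons and the pooled ones neural progenitors. The neuronal gene STMN2 was found in 70.9% of cells at D22 and 99.8% at D24, and the pluripotency gene POU5F1 stood at 1244 CPM at D0, which was an ESC culture, and at 14.5 to 26.6 CPM at D5 and D10. The study named 1 of its cell classes IRX+ from these same cells, and the IRX level of that class is therefore no independent result.

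In the annotation used for the coordinates (GENCODE, GRCh38), the first cluster lay on chromosome 5 and the second on chromosome 16. IRX4 spanned chr5:1877413-1887236 on the minus strand, IRX2 chr5:2745845-2751677 on the minus strand, and IRX1 chr5:3595832-3601403 on the plus strand. IRX4 and IRX2 were 858.608 kb apart, and IRX2 and IRX1 844.154 kb. IRX3 spanned chr16:54283304-54286787 on the minus strand, IRX5 chr16:54930865-54934485 on the plus strand, and IRX6 chr16:55324203-55330756 on the plus strand. The gap between IRX3 and IRX5 was 644.077 kb, and that between IRX5 and IRX6 389.717 kb. Both clusters also held a long noncoding RNA gene close to a member. C5orf38, the name the files use for IRX2-DT, began beside the IRX2 start and ran away from it, with 0.453 kb between the gene bodies. CRNDE began 1.675 kb from the IRX5 start and ran away from it on the minus strand. IRX4-AS1 overlapped IRX4 on the other strand, and the counts of IRX4 are uncertain to that extent, since the strand setting of the counting is not given in the sources used here.

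Promoter sequences were read from RefSeq (GRCh38.p14) for 3 of the 6 members, IRX1, IRX2 and IRX4. IRX3, IRX5 and IRX6 had no entry in the table used. Sequences of 2 intervals are printed, the one shared by IRX2 and C5orf38, which start beside each other, and the one before IRX1, the member that was more than 2-fold lower in the XAV939 than in the dSMADi sample at both days. Both are on the plus strand, 5′ to 3′, with the motifs found in capitals.
Between the IRX2 and C5orf38 starts of RefSeq, chr5:2751678-2751892: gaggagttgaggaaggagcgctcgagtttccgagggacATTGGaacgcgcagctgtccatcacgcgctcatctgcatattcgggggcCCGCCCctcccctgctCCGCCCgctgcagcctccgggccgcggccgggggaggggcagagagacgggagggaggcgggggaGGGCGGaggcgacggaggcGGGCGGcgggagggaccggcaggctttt
Before the IRX1 start, chr5:3595582-3595831: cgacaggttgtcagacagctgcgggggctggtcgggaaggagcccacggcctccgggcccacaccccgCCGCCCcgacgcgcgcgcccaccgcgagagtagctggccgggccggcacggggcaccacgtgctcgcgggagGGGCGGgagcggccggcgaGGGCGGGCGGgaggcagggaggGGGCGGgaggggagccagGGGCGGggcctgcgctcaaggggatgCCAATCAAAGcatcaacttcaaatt
RefSeq starts C5orf38 before the GENCODE position of 2752131, so the first interval is shorter than the gap given above. The interval at IRX2 was 215 bases with a GC content of 72.6% and 24 CpG, and that before IRX1 was 250 bases with 75.2% and 29 CpG. Over all 35116 promoters of the table, in windows of 300 bases, the medians were 58.7% and 14. Both strands were searched for the GC box GGGCGG, for the CCAAT box, for TATAAA as found in TATA boxes, for CTTTGA as found in sites of the TCF and LEF factors, and for ACANNTGT, a motif reported for Iroquois proteins. The IRX2 interval held 4 GC boxes and 1 CCAAT, and the IRX1 interval held 6 GC boxes, of which a pair overlapped, 1 CCAAT and 1 CTTTGA, these last sharing 1 base. Neither held ACANNTGT or TATAAA. In windows of 250 bases, GGGCGG was found in 42.6% of all promoters, CCAAT in 32.0%, CTTTGA in 11.2%, TATAAA in 10.7% and ACANNTGT in 4.71%. In windows of 215 bases the shares were 41.0%, 29.2%, 9.58%, 9.29% and 3.99%. A match is a description of letters and not of a bound site.

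Of the first cluster, IRX2 was detected throughout. It stood at 9.99 CPM (9.29 to 10.7) at D0, where 413 of 1008 cells (41.0%) held a UMI of it. It stood at 17.8 CPM at D5_dSMADi, 15.0 at D5_XAV939, 8.98 at D10_dSMADi and 15.4 at D10_XAV939. At the later days it was 19.5 CPM (18.8 to 20.3) at D22, 9.35 at D24 and 7.22 at D26. Within the pool its highest level was thus at D5_dSMADi, and within D22 to D26 at D22. The pool and D22 to D26 differed in Cell Ranger version, in the genes listed, in depth and in the limits on cells. Levels are therefore only set side by side between them, and a difference cannot be told apart from these. The share of cells with a UMI went from 41.0% at D0 to 4.21% at D26, but the cells were far deeper at D0. After each cell was thinned to 10000 UMIs (D0 to D10) or 1500 UMIs (D22 to D26), the shares were 8.63% at D0, 8.15% to 14.9% at D5 and D10, and 2.43%, 1.44% and 0.986% at D22, D24 and D26, and shares are comparable only within each of these sets of libraries.

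IRX1 stood at 0.237 CPM at D0, where 18 UMIs were counted in 17 cells. It was 1.38 CPM (1.13 to 1.66) at D5_dSMADi, 0.427 (0.300 to 0.588) at D5_XAV939, 2.39 (2.06 to 2.75) at D10_dSMADi and 0.861 (0.639 to 1.14) at D10_XAV939. It was 5.18 CPM (4.80 to 5.59) at D22, 3.26 (2.86 to 3.72) at D24 and 1.43 (1.20 to 1.68) at D26. IRX1 was thus lower in the XAV939 sample of either day, and within D22 to D26 it was highest at D22. IRX4, best known from the ventricular myocardium, was near the limit of detection after D0. It had 31 UMIs in 31 cells at D0 (0.408 CPM, 0.278 to 0.580), 2 at D5_dSMADi, 4 at D5_XAV939, 1 at D10_dSMADi, none at D10_XAV939 or D22, and 6 at each of D24 and D26. A count of 0 allowed up to 0.0517 CPM at D10_XAV939 and up to 0.023 CPM at D22.

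Of the second cluster, IRX3 stood at 0.527 CPM (0.377 to 0.718) at D0, with 40 UMIs in 40 cells. It was 6.66 CPM at D5_dSMADi, 4.91 at D5_XAV939, 4.82 at D10_dSMADi and 1.91 at D10_XAV939. It was 4.56 CPM (4.20 to 4.94) at D22, 3.26 at D24 and 3.88 (3.50 to 4.29) at D26. Within the pool the highest level of IRX3 was thus at D5_dSMADi, and the lowest after D0 at D10_XAV939. IRX5 stood at 0.105 CPM (0.0455 to 0.208) at D0, from 8 UMIs, between 0.809 and 1.52 CPM in the 4 samples of D5 and D10, and at 4.29 (3.94 to 4.66), 2.39 (2.05 to 2.79) and 3.77 (3.40 to 4.17) CPM at D22, D24 and D26. The printed levels of IRX5 and IRX1 were higher at D22 than in any earlier sample, whereas that of IRX3 was not. Here the day cannot be told apart from the differences between the pool and the late libraries. IRX6 had 7 UMIs at D22, 4 at D24, 4 at D26, 1 at D0, 1 at D10_dSMADi and none in the remaining libraries, where a count of 0 allowed up to 0.0376 CPM at D5_dSMADi and 0.0346 CPM at D5_XAV939.

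**Figure D1:**
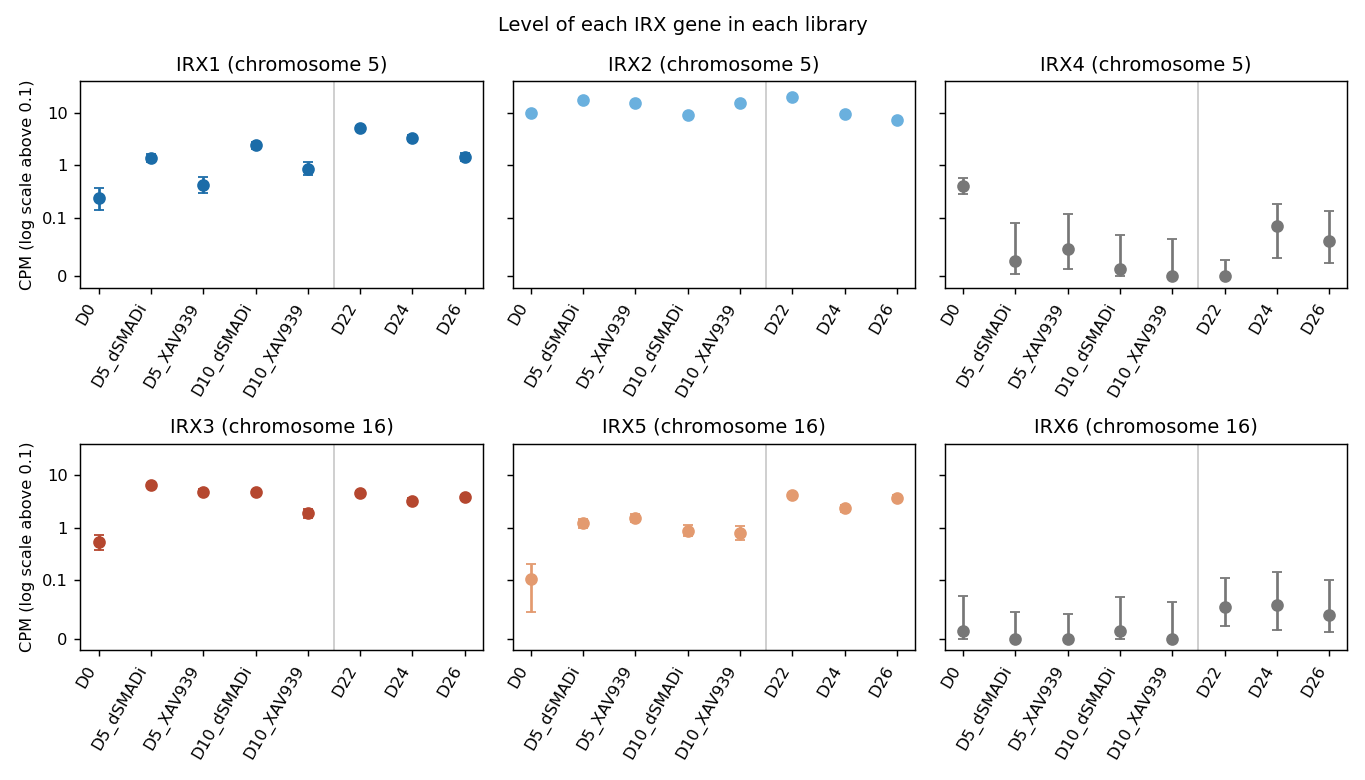
Level of each IRX gene in each of the 8 libraries, in CPM on an axis that is logarithmic above 0.1 and linear below, with exact 95% Poisson intervals for counting error. IRX2 stays between 7.22 and 19.5 CPM in all 8 libraries, while IRX1, IRX3 and IRX5 are below 0.6 CPM at D0 and above 1.4 CPM at D22, D24 and D26. The pool (D0 to D10) and D22 to D26 are set side by side only.

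Between D0 and D5_dSMADi, the first step of neural induction, IRX3 and IRX5 were higher by log2 ratios of 3.66 (3.20 to 4.16) and 3.54 (2.51 to 4.80), and IRX1 by 2.54 (1.81 to 3.35). IRX2 was higher by only 0.83 (0.70 to 0.96). IRX4 was lower, at 2 against 31 UMIs, a log2 ratio of -4.02 (-7.13 to -2.05). Of the 5 members with enough UMIs, 4 were past 2-fold, beside 37.2% of all genes tested, so a change of this size was common across genes. In D5_XAV939 against D0 the log2 ratios were 3.22 for IRX3, 3.85 for IRX5, 0.59 for IRX2, -3.15 for IRX4 and 0.85 (-0.00 to 1.75) for IRX1, with 3 of 5 members past 2-fold beside 37.6% of genes. These comparisons share the D0 library, and D0 held deeper cells under other limits.

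From D5 to D10 the members moved apart. In the dSMADi samples IRX1 was higher at D10 (log2 ratio 0.79, 0.44 to 1.14), while IRX2 (-0.98, -1.12 to -0.85), IRX3 (-0.47, -0.66 to -0.27) and IRX5 (-0.47, -0.93 to -0.01) were lower. None of the 4 members tested was past 2-fold, beside 15.5% of genes. In the XAV939 samples IRX1 was higher (1.01, 0.37 to 1.67), IRX2 stood at 0.04 (-0.09 to 0.16), and IRX3 (-1.36, -1.68 to -1.06) and IRX5 (-0.91, -1.42 to -0.42) were lower. Here 2 of 4 members were past 2-fold, beside 13.7% of genes. Over genes with at least 50 UMIs in both libraries, the median log2 ratio was 0.21 in the dSMADi samples and 0.17 in the XAV939 samples. The lower members were thus lower still relative to the typical gene. With scaling to the median gene the ratio of IRX1 in the XAV939 samples was 0.84, short of 2-fold. With the same scaling IRX2 in the dSMADi samples and IRX5 in the XAV939 samples passed 2-fold lower, so the counts of members depend on the scaling.

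XAV939 was added in the study to ask whether inhibiting Wnt signalling changes how many GnRH neurons form. At D5, XAV939 against dSMADi gave log2 ratios of -1.69 (-2.27 to -1.14) for IRX1, -0.24 (-0.35 to -0.13) for IRX2, -0.44 (-0.63 to -0.25) for IRX3 and 0.31 (-0.08 to 0.70) for IRX5, whose interval held 0. IRX1 alone of the 4 was past 2-fold, beside 5.24% of genes, a share that was 2.66% among genes with at least 100 UMIs and 22.6% with a minimum of 1 UMI. At D10 the log2 ratios were -1.47 (-1.95 to -1.01) for IRX1, 0.78 (0.64 to 0.93) for IRX2, -1.34 (-1.65 to -1.03) for IRX3 and -0.13 (-0.70 to 0.42) for IRX5, so that IRX1 and IRX3, 2 of 4 members, were past 2-fold beside 9.45% of genes (5.81% and 26.6% with these other minimums). IRX1 was lower with XAV939 on both days, and IRX2 was lower at D5 and higher at D10. In D10_XAV939, 1 cell held 27 of the 111 IRX3 UMIs (24.3%), and without it the log2 ratio of IRX3 was -1.74. The share of cells with an IRX3 UMI was 281 cells (11.6%) in D10_dSMADi and 69 cells (3.18%) in D10_XAV939, or 4.43% and 1.34% at 10000 UMIs per cell.

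Genes of the Wnt pathway and of the anterior brain were set beside the family in the same samples. WLS, which carries Wnt ligands to the cell surface, stood at 367 CPM at D5_dSMADi and 124 at D5_XAV939, and at 267 CPM at D10_dSMADi and 21.5 at D10_XAV939. Of the Wnt list, none of 9 genes was past 2-fold higher at D5 and 2 were lower, WLS (-1.57) and the secreted Wnt inhibitor NOTUM (-1.03). At D10 none of 8 was higher and 2 were lower, WLS (-3.63) and SFRP2 (-1.03), while AXIN2, a direct Wnt target in most cells, had a log2 ratio of -0.40. Over all genes, 5.24% were past 2-fold at D5 and 9.45% at D10, 606 of them higher and 1136 lower at D10. Among forebrain and anterior factors at D5, 2 of 11 were past 2-fold higher and 1 lower, among factors of the diencephalon, midbrain and hindbrain 2 of 8 higher and 2 lower, and among factors that border Irx3 in the neural tube none of 7 higher and 3 lower, against 2 higher and 1 lower of 6 at D10. Among forebrain and anterior factors at D10, 3 of 12 were past 2-fold higher, among them SIX6 (3.49) and SIX3 (1.88), and 2 were lower, among them DMRTA2 (-1.45). EN1 and EN2, genes of the midbrain-hindbrain border, had at most 4 UMIs in any library of the pool, so no ratio could be read for them. Of the factors of the diencephalon, midbrain and hindbrain, 7 could be measured at D10, with 3 past 2-fold higher, PAX3 (2.44), PAX2 (1.68) and BARHL2 (1.02), all from at most 33 UMIs in a library, and 1 lower, BARHL1 (2 against 316 UMIs).

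From D22 to D24 all 4 members measured were lower. The log2 ratios were -0.67 (-0.89 to -0.45) for IRX1, -1.06 (-1.19 to -0.94) for IRX2, -0.48 (-0.71 to -0.26) for IRX3 and -0.84 (-1.10 to -0.59) for IRX5. IRX2 alone of the 4 was past 2-fold, beside 31.8% of genes, and with scaling to the median gene its ratio was -0.999, just short of 2-fold. From D24 to D26, IRX1 (-1.19, -1.50 to -0.88) and IRX2 (-0.37, -0.53 to -0.22) were lower, and IRX5 (0.65, 0.39 to 0.93) was higher, with IRX1 alone of 4 past 2-fold beside 17.1% of genes. IRX3 stood at 0.25 (0.01 to 0.49), but the median gene had a log2 ratio of 0.31, and with scaling to the median gene or with the mean of single-cell CPM the sign of IRX3 turned, to -0.058 and -0.069. The share of cells with a UMI of any member was 14.9% at D22, 7.86% at D24 and 5.34% at D26, or 3.66%, 2.45% and 1.66% at 1500 UMIs per cell. With summed UMIs, fewer cells transcribing a gene and less transcript per cell cannot be told apart from the level alone.

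**Figure D2:**
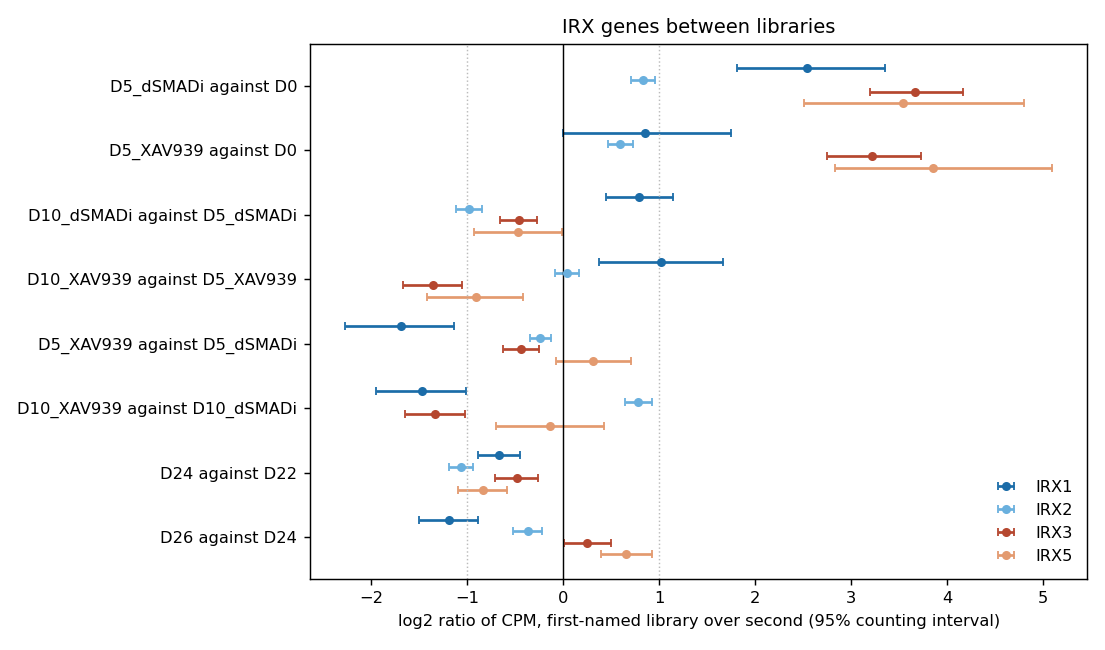
Log2 ratio of CPM of IRX1, IRX2, IRX3 and IRX5 in the comparisons between libraries, with exact 95% intervals for counting error and a line at 0. IRX1 is below 0 in both comparisons of XAV939 with dSMADi (-1.69 at D5, -1.47 at D10), and IRX2 lies below 0 at D5 (-0.24) and above 0 at D10 (0.78).

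The share of IRX2 in the UMIs of the family differed between libraries. IRX2 gave 92.0% (89.9 to 93.8) of the UMIs of IRX1, IRX2, IRX3 and IRX5 at D0, 65.7% at D5_dSMADi, 68.7% at D5_XAV939, 52.6% at D10_dSMADi and 81.2% at D10_XAV939. For D22, D24 and D26 it gave 58.2%, 51.2% and 44.3%. Within the pool the share was thus highest at D0, and the D10_XAV939 sample lay between D0 and its dSMADi counterpart. Within D22 to D26 it was lowest at D26. It is a share of UMIs and not of transcripts, since capture differs between genes.

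To see which cells held the transcripts, the cells of D22, D24 and D26 were clustered without the IRX genes, their neighbours, SOX2 and STMN2, which gave 15 clusters. Most clusters came almost wholly from 1 day, so that for these a cluster and its library cannot be told apart. Clusters with fewer than 50 cells of a day were not measured on their own. Among the others, the family was highest at D22 in cluster 10, 447 cells led by SFRP2, WLS, PTX3 and NR2F1. There IRX1 stood at 66.9 CPM, IRX2 at 188, IRX3 at 56.2 and IRX5 at 50.4, and 47.0%, 78.3%, 42.1% and 40.7% of cells held a UMI of them. Cluster 8 at D22, 621 cells led by S-phase histone genes such as HIST1H1B and HIST1H1D, followed with 12.8, 47.5, 16.3 and 15.5 CPM. Its cells were deep, with a median of 20029 UMIs over the 3 days, and 14.1% of them were among the 6% of cells with the highest doublet scores in their libraries.

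Among clusters with at least 50 cells of the day, IRX1, IRX2, IRX3 and IRX5 were highest in cluster 7 at D24 and D26. Cluster 10 had only 42 cells at D24, so it was not ranked there. Cluster 7 was led by CRABP1, SST, ROBO3 and NR2F1 and had 7502 CPM of STMN2 and 62.5 CPM of SOX2. In its 433 cells of D24, IRX1 stood at 47.9 CPM, IRX2 at 78.6, IRX3 at 57.8 and IRX5 at 40.2. In its 244 cells of D26, IRX1 stood at 45.2 CPM, IRX2 at 145, IRX3 at 134 and IRX5 at 129. Cluster 7 thus had like levels of IRX1 on both days and higher levels of the other 3 members at D26, while its share of the cells was smaller. The UMIs of the rare members lay mostly in the same clusters. All 6 IRX4 UMIs of D24 and 5 of the 6 of D26 were in cluster 7. So were 3 of the 4 IRX6 UMIs at each of these days. The 7 IRX6 UMIs of D22 were in cluster 10 (4) and cluster 8 (3).

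Clusters 7, 8 and 10 were pooled after their IRX levels had been seen, and their levels are a description. They made up 11.3% of the cells at D22, 5.78% at D24 and 2.36% at D26. They held 94.5%, 86.5% and 85.8% of the IRX3 UMIs of these days, 92.3%, 85.1% and 83.7% of the IRX5 UMIs, and 85.8%, 89.5% and 81.0% of the IRX1 UMIs. For IRX2 the shares were lower, 69.8%, 50.3% and 52.4%. In all other clusters together, IRX2 stood at 6.95, 4.95 and 3.54 CPM. The levels there were 0.297, 0.470 and 0.569 CPM for IRX3, 0.388, 0.379 and 0.631 CPM for IRX5 and 0.865, 0.364 and 0.279 CPM for IRX1. At D22, 7.85% of those other cells held an IRX2 UMI and 0.260% an IRX3 UMI, at a median of 11956 UMIs per cell, against a median of 17768.5 in the 3 clusters. At D24 the medians were 7184 and 7150.5.

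For each day, the balance of IRX2 and IRX3 was set side by side in the largest cluster and in the one with the highest IRX levels. Only clusters with at least 50 cells of the day were used. At D22 the ratio of IRX2 to IRX3 UMIs was 3.34 (2.96 to 3.79) in cluster 10 and 23.0 (13.7 to 41.5) in cluster 2, a neuronal precursor-like cluster led by SSTR2, NEUROD4 and NEUROG1. At D24 it was 1.36 (1.12 to 1.65) in cluster 7 and 18.1 (10.9 to 32.0) in cluster 1, led by FSTL5 and RSPO3, and at D26 it was 1.08 (0.926 to 1.26) in cluster 7 and 9.14 (5.87 to 14.9) in cluster 0, led by GABRA2 and CDH12. The clusters were chosen by their IRX levels or their size, so these ratios are a description and no test. Other clusters of D26 lay nearer to cluster 7, at 3.85 (2.50 to 6.12) in cluster 3 and 2.40 (0.787 to 8.70) in cluster 11. The interval of cluster 11 overlapped that of cluster 7. Cluster 12 at D24 went the other way, with 2 IRX2 and 8 IRX3 UMIs. The part of free RNA in the low levels was not tested. In the GNRH1-led clusters, IRX3 stood at 0.890 CPM (cluster 9, D24) and 1.53 CPM (cluster 3, D26), and IRX2 at 6.68 and 5.90 CPM.

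**Figure D3:**
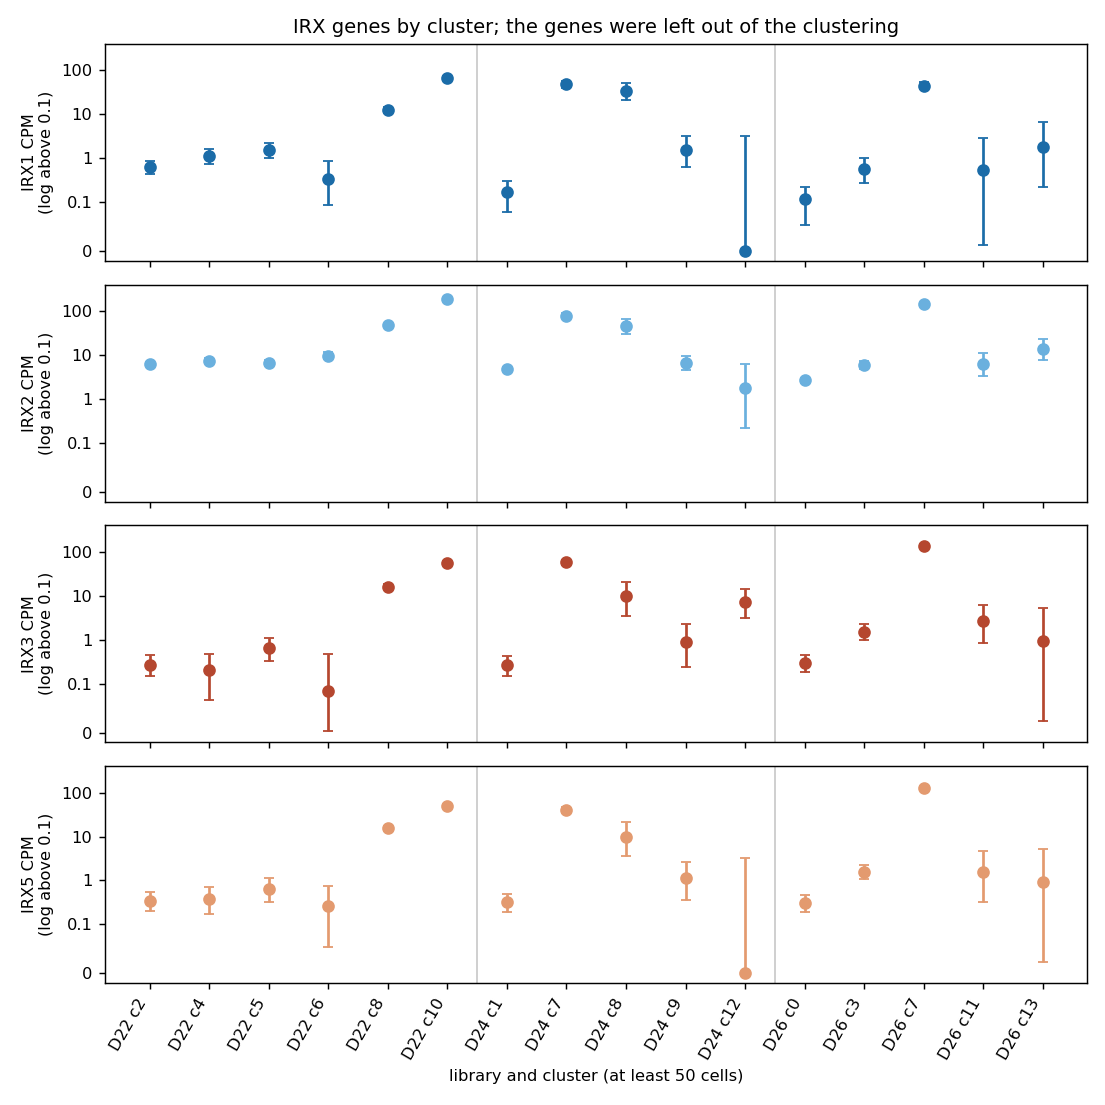
Level of IRX1, IRX2, IRX3 and IRX5 in each cluster (c) of D22, D24 and D26 with at least 50 cells, in CPM on an axis that is logarithmic above 0.1, with 95% counting intervals. Cluster 10 at D22 and cluster 7 at D24 and D26 stand highest for all 4 genes, and IRX2 is found at 1.78 to 13.9 CPM in the clusters other than 7, 8 and 10.

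SOX2, a transcription factor of neural progenitors, and STMN2, a microtubule regulator of neurons, were used to divide the cells by stage. At D22, 6318 cells held a SOX2 UMI and 3205 did not. IRX1 stood at 6.69 CPM in cells with SOX2 and 1.36 in those without, a log2 ratio of 2.30 (1.88 to 2.74), and IRX2 at 23.7 and 8.94 CPM, 1.41 (1.24 to 1.58). IRX3 stood at 5.91 and 1.14 CPM, 2.37 (1.92 to 2.86), and IRX5 at 5.53 and 1.14 CPM, 2.28 (1.82 to 2.77). All 4 members were past 2-fold, beside 12.7% of genes. For cells with STMN2 against those without the order turned round, with log2 ratios of -2.07 for IRX1 (2.69 against 11.3 CPM), -1.45 for IRX2 (13.0 against 35.6 CPM), -2.07 for IRX3 (2.36 against 9.96 CPM) and -2.12 for IRX5 (2.18 against 9.48 CPM), all 4 past 2-fold beside 9.99% of genes. A UMI of SOX2 is more readily seen in a deep cell, and the medians of cells with and without it were 12930.5 and 11231 UMIs. After each cell was thinned to 1500 UMIs, the log2 ratios for SOX2 were between 0.81 and 1.34, and IRX2 and IRX5 were short of 2-fold. SOX2 was then seen in only 2207 cells, so many cells changed class. The effect of depth and of this change cannot be told apart.

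With both genes in view at D22, the 2256 cells with SOX2 alone had the highest levels, 12.9 CPM of IRX1, 40.5 of IRX2, 11.1 of IRX3 and 10.6 of IRX5. The 4062 cells with both SOX2 and STMN2 had 3.45, 14.9, 3.16 and 2.88 CPM, and the 2688 cells with STMN2 alone 1.18, 9.25, 0.801 and 0.801 CPM. An IRX3 UMI was found in 8.33%, 2.49% and 0.595% of these cells. The 4 members were therefore ordered alike over these 3 classes. A single UMI made a cell positive, and STMN2 was also found in 46.4% of the undifferentiated D0 cells, at 15.3 CPM, so the part of free RNA or low STMN2 levels in the class with both genes was not tested. In the 517 cells with neither gene, IRX1 (2.33 CPM) and IRX2 (7.18 CPM) were lower than in the cells with both, while IRX3 and IRX5 (3.05 CPM each) were about level with them. Cells with STMN2 and no SOX2 were 93.9% of the cells at D24 and 95.6% at D26, and they held 191 of 229 and 340 of 386 IRX3 UMIs. The 553 cells with SOX2 at D24 had more of each of these 4 members than those without, with log2 ratios of 2.54 for IRX1, 1.52 for IRX2, 1.29 for IRX3 and 2.17 for IRX5, all 4 past 2-fold beside 14.1% of genes. At D26, over 488 cells with SOX2, the log2 ratios were 2.82, 1.94, 1.29 and 1.44, again all 4 past 2-fold beside 14.1% of genes. Cells with SOX2 were deeper on these days too. The medians with and without it were 8338 and 7131 UMIs at D24, and 9287 and 8452 at D26. In thinned cells the log2 ratio of IRX2 moved beyond its interval in all 5 comparisons by SOX2 or STMN2 that were recomputed, D24 and D26 included.

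In the pool, at least 99.4% of cells held SOX2, so that division had no use there. At D10_XAV939, where 235 cells held STMN2, IRX3 stood at 8.58 CPM in these and 1.07 CPM in the other 1933 cells, a log2 ratio of 3.01 (2.44 to 3.57), beside 8.39% of genes past 2-fold. The cell with 27 IRX3 UMIs was among the cells with STMN2, and without it the log2 ratio was 2.07 (1.37 to 2.74). By cells, 18 of 235 (7.66%) with STMN2 and 51 of 1933 (2.64%) without it held an IRX3 UMI. At D10_dSMADi the shares were alike, 19 of 161 cells (11.8%) and 262 of 2255 (11.6%), and the log2 ratio was 0.62 (0.09 to 1.10), or 0.28 (-0.31 to 0.82) without the cell with the most IRX3 UMIs. Likewise without the cell with the most UMIs of the gene, IRX5 at D10_dSMADi stood at 1.28 (0.14 to 2.26), with 5.59% against 2.48% of cells, while the intervals of IRX1 and IRX2 there and of IRX1, IRX2 and IRX5 at D10_XAV939 held 0.

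Co-detection was measured for each pair as the number of cells with UMIs of both genes over the number expected if they were independent within 10 bins of cell depth. At D22 every pair among IRX1, IRX2, IRX3 and IRX5 was found together more often than that. Within the first cluster, IRX1 and IRX2 were found together in 300 cells against 59.8 expected, a ratio of 5.02 (4.46 to 5.62), and 75.6% of cells with IRX1 also held IRX2. Within the second cluster, IRX3 and IRX5 were found together in 171 cells, a ratio of 11.9 (10.2 to 13.9), and 54.8% of cells with IRX3 held IRX5 against 1.66% of cells without IRX3. Between the clusters the ratios were 9.25 (7.83 to 10.9) for IRX1 and IRX3, 8.56 (7.24 to 10.1) for IRX1 and IRX5, 5.25 (4.62 to 5.93) for IRX2 and IRX3 and 4.71 (4.13 to 5.34) for IRX2 and IRX5. A ratio is capped by how common the genes are, at 6.64 for IRX1 with IRX2 and 20.6 for IRX3 with IRX5, so ratios of pairs with IRX2 cannot be set against those without it. Ratios of 2 or more were found with IRX1 for 4.86% of genes, with IRX2 for 2.07%, with IRX3 for 5.64% and with IRX5 for 5.94%.

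Each member was also ranked among all genes by its ratio with another. At D22 IRX5 had the 3rd highest ratio of 16503 genes with IRX3, and IRX3 the 2nd highest of 16631 genes with IRX5. With IRX1, IRX3 ranked 17th, IRX5 27th and IRX2 103rd of 16934 genes. IRX2 ranked 133rd with IRX3 and 160th with IRX5. Ranks are bound by the same caps, so those of common and rare genes cannot be set against each other either. Among 17112 genes with IRX2, IRX3 ranked 10th and IRX1 12th at D22, and IRX1 ranked 1st of 15472 at D24. For IRX3 with IRX5 at D24 the ratio was 24.1 (18.0 to 31.6), from 52 cells against 2.15 expected, and at D26 it was 35.3 (28.7 to 43.0), from 99 cells, when 66.4% of cells with IRX3 held IRX5. At D26 each was the other's highest partner of all genes compared. The caps of this pair were 53.8 at D24 and 51.3 at D26, against 20.6 at D22. Its ratios of different days can therefore not be set against each other by size. For the remaining pairs at D24 the ratios were between 4.66 and 12.2, and at D26 they were 11.5 for IRX2 with IRX5, 12.6 for IRX1 with IRX2, 18.5 for IRX1 with IRX3 and 20.6 for IRX1 with IRX5, while IRX2 and IRX3 were found together in 82 cells against 7.82 expected. At D24, ratios of 2 or more were found with IRX1 for 6.6% of genes, with IRX2 for 4.4%, with IRX3 for 5.14% and with IRX5 for 4.99%, and at D26 for 4.02% with IRX2, 4.55% with IRX3 and 4.27% with IRX5.

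Co-detection was also measured inside single clusters of cells, and the part of it that lay between clusters was not computed. Inside cluster 10 at D22 the ratio was 1.13 for IRX1 with IRX2, 1.09 for IRX2 with IRX3, and 1.04, 1.01 and 1.03 for the remaining pairs between the clusters of genes, while IRX3 with IRX5 stood at 1.36 (1.12 to 1.65). Inside cluster 7 the ratio for IRX3 with IRX5 was 1.97 (1.45 to 2.62) at D24 and 1.43 (1.15 to 1.76) at D26. There, IRX1 with IRX2 stood at 1.39 and 1.11, and the pairs across the clusters of genes between 0.781 and 1.03 at D24 and between 0.901 and 1.01 at D26. Inside cluster 8 at D22 the ratios were higher, 2.47 for IRX1 with IRX2, 3.41 for IRX3 with IRX5 and 2.30 to 2.98 for the pairs across. The interval of IRX3 with IRX5 thus lay above 1 in each of these 4 groups of cells, whereas those of the pairs across the chromosomes held 1 in clusters 10 and 7. For IRX1 with IRX2, the other pair on 1 chromosome, it held 1 in cluster 10 (0.970 to 1.30) and in cluster 7 at D26 (0.833 to 1.45). It lay above 1 in cluster 7 at D24 (1.08 to 1.76) and in cluster 8 (1.99 to 3.02). IRX2 was found in 350 of the 447 cells of cluster 10, which caps its ratios there below that of IRX3 with IRX5, and the pairs were not ranked. IRX3 was found in 188 and IRX5 in 182 of these cells, which caps their ratio there far below the 20.6 over all cells of D22. Ratios inside a cluster and over all cells can therefore not be set against each other by size.

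In the pool most pairs were near independence. At D0, IRX2 and IRX3 had a ratio of 1.02 and IRX2 and IRX4 of 0.964 (0.498 to 1.68), and IRX3 and IRX4 were never found together, against 1.32 cells expected. IRX1 and IRX2 stood at 1.35 (1.02 to 1.75) at D5_dSMADi and 1.64 (1.18 to 2.21) at D10_dSMADi. IRX3 and IRX5 stood at 1.27 (0.830 to 1.86) at D5_dSMADi, 2.62 (1.62 to 4.01) at D10_dSMADi, from 21 cells against 8.01 expected, and 3.37 (1.09 to 7.85) at D10_XAV939, from 5 cells. The intervals of IRX3 with IRX5 thus left 1 in the D10 samples and held it at D5_dSMADi.

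**Figure D4:**
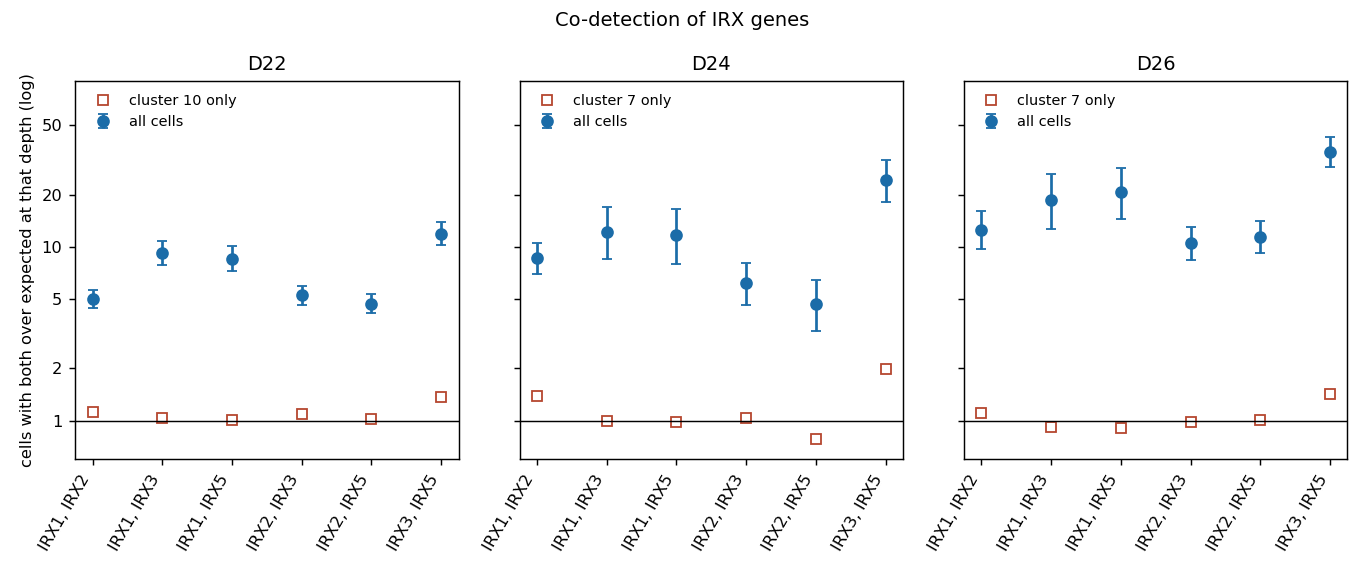
Co-detection ratio of the pairs of IRX1, IRX2, IRX3 and IRX5 at D22, D24 and D26, on a log axis with a line at 1, for all cells (filled, with 95% intervals for counting error) and for cells of 1 cluster (open, without intervals). The ratio of IRX3 with IRX5 is 11.9, 24.1 and 35.3 at D22, D24 and D26, against 1.36 in cluster 10 at D22 and 1.97 and 1.43 in cluster 7 at D24 and D26. The highest possible ratios of this pair over all cells are 20.6, 53.8 and 51.3, and they are lower inside these clusters, where the genes are more common.

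The noncoding neighbours were measured in the same way. C5orf38, which starts beside IRX2, had co-detection ratios at D22 of 7.82 (6.83 to 8.91) with IRX1, 4.12 with IRX2, 7.73 with IRX3 and 7.22 with IRX5. Of the cells with C5orf38, 62.8% held IRX2, 39.9% IRX1, 32.4% IRX3 and 32.2% IRX5, and its ratio with IRX2, the most common member, is capped lower than the others. Among the 16934 genes compared with IRX1 it ranked 34th. CRNDE, which starts close to IRX5, had ratios of 2.12 with IRX5, 2.28 with IRX3 and 2.01 with IRX1 at D22, where it ranked 874th of 16631, 710th of 16503 and 818th of 16934 genes. With IRX2 it was found in 678 cells against 453 expected, rank 1033 of 17112. At D26 the ratios of CRNDE were 5.38 with IRX5 and 5.27 with IRX3. CRNDE was found in 31.9% of cells at D22 and 12.7% at D26, and C5orf38 in 5.90% at D22. The ratios of CRNDE are therefore capped lower at D22, and cannot be set against those of C5orf38 or of D26. C5orf38 stood at 1.04 CPM at D0, 7.24 at D22 and 3.17 at D26, and CRNDE at 12.1, 42.9 and 20.4 CPM. In the pool the ratios of C5orf38 were near 1 except with IRX1 at D10_dSMADi, at 2.68, from 15 cells against 5.59 expected. Among the other genes near the clusters, FTO, RPGRIP1L, NDUFS6, MRPL36, LPCAT1 and LPCAT2 had ratios of 0.577 to 1.28 at D22, and MMP2 had 1.62 (1.33 to 1.97) with IRX3 and 1.67 with IRX5.

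The genes most like each member were found by Pearson correlation of log-normalised values over the 9523 cells of D22, among 15045 genes, which share 1 library and differ in depth. IRX1 was most like AL359091.1 and IRX2 (both r = 0.52) and C5orf38 (0.50), and IRX2 was most like NR2F1 (0.59), AL359091.1 (0.56) and C5orf38 (0.54). IRX3 was most like NR2F1 (0.54), IRX5 (0.53) and AL359091.1 (0.47), and IRX5 was most like NR2F1 (0.53), IRX3 (0.53) and PDPN (0.46). NR2F1 encodes an orphan nuclear receptor that patterns the brain and PDPN the membrane protein podoplanin. Over the 16 groups of cells of 1 cluster and 1 day, by log2(CPM + 1), IRX1 was most like EN2 and IRX2 (both 0.97) and IRX5 (0.95), IRX2 was most like IRX1 (0.97), IRX5 (0.95) and C5orf38 (0.94), IRX3 was most like IRX5 (0.94), C5orf38 and LITAF (both 0.90), and IRX5 was most like IRX2, C5orf38 and IRX1 (all 0.95).

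What else the IRX cells transcribed was described by lists of genes in cells with an IRX3 or IRX5 UMI against all other cells of the same day, a choice made after the data were seen, since IRX2 had UMIs in every group of cells. At D22 these were 465 and 9058 cells, with medians of 14241 and 12125 UMIs. Of all genes, 8.09% were past 2-fold higher and 12.5% past 2-fold lower. Among forebrain and anterior factors none of 10 was past 2-fold higher and 9 were past 2-fold lower, with a median log2 ratio of -2.17. SIX3, a factor of the anterior neural plate, stood at 63.2 against 237 CPM (-1.90). OTX2, LHX2 and FEZF2 had log2 ratios of -2.06, -2.28 and -2.51, and RAX, an early eye field and hypothalamic gene, had 0 against 149 UMIs. Among factors of the diencephalon, midbrain and hindbrain, 6 of 9 were past 2-fold higher and 2 lower, with a median of 3.88. GBX2 stood at 40.3 against 1.35 CPM (4.90) and EN2 at 31.8 against 1.17 CPM (4.76), both genes of the midbrain-hindbrain border. EN1 (3.95), PAX3 (4.59), PAX5 (3.88) and PAX7 (2.80) were higher too, BARHL2 (-2.02) was among those that were lower, and HOX genes of the list had at most 4 UMIs in either group of cells.

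Factors that border Irx3 in the neural tube were mixed, with 3 of 7 past 2-fold higher, NKX6-2 (38.2 against 2.35 CPM, 4.02), DBX1 (4.63) and NKX6-1 (1.97), and 1 lower, OLIG2 (-1.04). PAX6 stood at 0.06. Of the Wnt list, 3 of 9 were past 2-fold higher, WLS (154 against 7.19 CPM, 4.42), SFRP2 (928 against 58.9 CPM, 3.98) and SFRP1 (1.78), and 3 were lower, LEF1 (-1.18), SP5 (0 against 20 UMIs) and RNF43 (1 against 103 UMIs). The genes that were higher encode a Wnt carrier and secreted Wnt antagonists, and AXIN2 stood at -0.06. Of 8 markers of the study's IRX+ class without IRX genes, 7 were past 2-fold higher, among them NR2F1 (4.74), NR2F2 (3.91), POU3F4 (3.75) and CRABP1 (2.91). That list was chosen by the study on these cells and is not independent evidence. Of 8 markers of glutamatergic neurons 7 were past 2-fold lower, and of 8 of GnRH-GABA neurons 7 were, with GNRH1 at -3.24. None of 8 markers of dividing cells was past 2-fold either way, and 3 of 8 markers of neuronal precursors were lower. Of 9 neighbours of the loci 2 were past 2-fold higher, C5orf38 (64.1 against 3.69 CPM, 4.12) and CRNDE (182 against 34.3 CPM, 2.41), and none was lower.

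At D24 there were 216 such cells against 8891, and 8.46% of genes were past 2-fold higher and 15.6% lower. All 8 forebrain factors measured were past 2-fold lower (median -1.75). Of the factors of the diencephalon, midbrain and hindbrain, called posterior factors below, 6 of 9 were higher, with EN2 at 4.22, PAX5 at 4.78, GBX2 at 3.69 and EN1 at 3.19. At D26, with 219 cells against 10837 and 8.43% of genes higher and 14% lower, 6 of 8 forebrain factors were lower (median -1.58), and 3 of 6 posterior factors were higher and 2 lower, with EN2 at 6.48 and GBX2 at 2.35. EN2 and GBX2 were thus past 2-fold higher in IRX3 or IRX5 cells on each of the 3 days. NKX6-2 was on opposite sides, at 4.02 at D22, -1.95 at D24 and 2.56 at D26, whereas NKX6-1 was higher on all 3 days (1.97, 2.47 and 2.67). SFRP2 was higher at D24 (3.83) and D26 (4.31), as was WLS (1.79 and 2.31). All 8 markers of dividing cells were past 2-fold higher at both days, which was not so at D22. Of 8 markers of neuronal precursors, 7 were past 2-fold higher at D24 (summed level 766 against 253 CPM) and 3 at D26, and none was lower at D26. Of 8 glutamatergic markers 5 were past 2-fold lower at D24 and 4 at D26, and of 8 GnRH-GABA markers 2 and 1 were. With a UMI of any member as the criterion at D22 (1420 against 8103 cells), where 4.52% of genes were past 2-fold higher and 2.7% lower, 6 of 9 posterior factors were higher and none of 10 forebrain factors passed 2-fold in either direction (median -0.69). With that criterion none of 8 forebrain factors passed at D24 (median -0.76) or at D26 (-0.49) either. Of all genes, 6.35% were past 2-fold higher and 4.83% lower at D24, and 6.01% and 5.6% at D26.

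Markers of other cell types differed too between cells with and without an IRX3 or IRX5 UMI. Of the 6 neural crest markers, 4 were measured well enough at D22, with 3 past 2-fold higher, ETS1 (5.08), SNAI2 (3.42) and TFAP2B (2.45), and TFAP2A lower (-1.32). Their sum was 11.9 CPM in cells with IRX3 or IRX5 and 11.3 in the others, and SOX10, which defines the lineage, was at 0 UMIs in the former. The sum was 31.8 against 4.28 CPM at D24 and 56.6 against 3.26 CPM at D26, where TFAP2A (5.51) and TFAP2B (5.96) led and SOX10 was again at 0. Of the 6 mesenchyme markers 5 were measured well enough at D22, with 3 past 2-fold higher and 2 lower. The sum of the list was 41.8 against 3.77 CPM at D22, of which COL3A1 gave 36.2 against 0.67 CPM, while COL1A1 was lower (-1.11), and it was 7.52 against 2.81 CPM at D24. Of the surface ectoderm and placode list 3 of 7 genes could be measured at D22, with 1 past 2-fold higher and 1 lower, and KRT5 and TP63 were at 0 UMIs. Also at D22, none of 4 pluripotency markers was past 2-fold either way, 1 of 2 glial markers was lower, and none of the 4 endoderm markers could be measured. Of the pluripotency markers 1 was past 2-fold lower at D24, and 3 of 4 were past 2-fold higher at D26, where their sum was 17.0 against 4.92 CPM. Of cells with any IRX UMI at D22, 11.5% were among those with the highest doublet scores, against 5.04% of the others. The part of these cells and of doublets in the differences above was not tested.

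**Figure D5:**
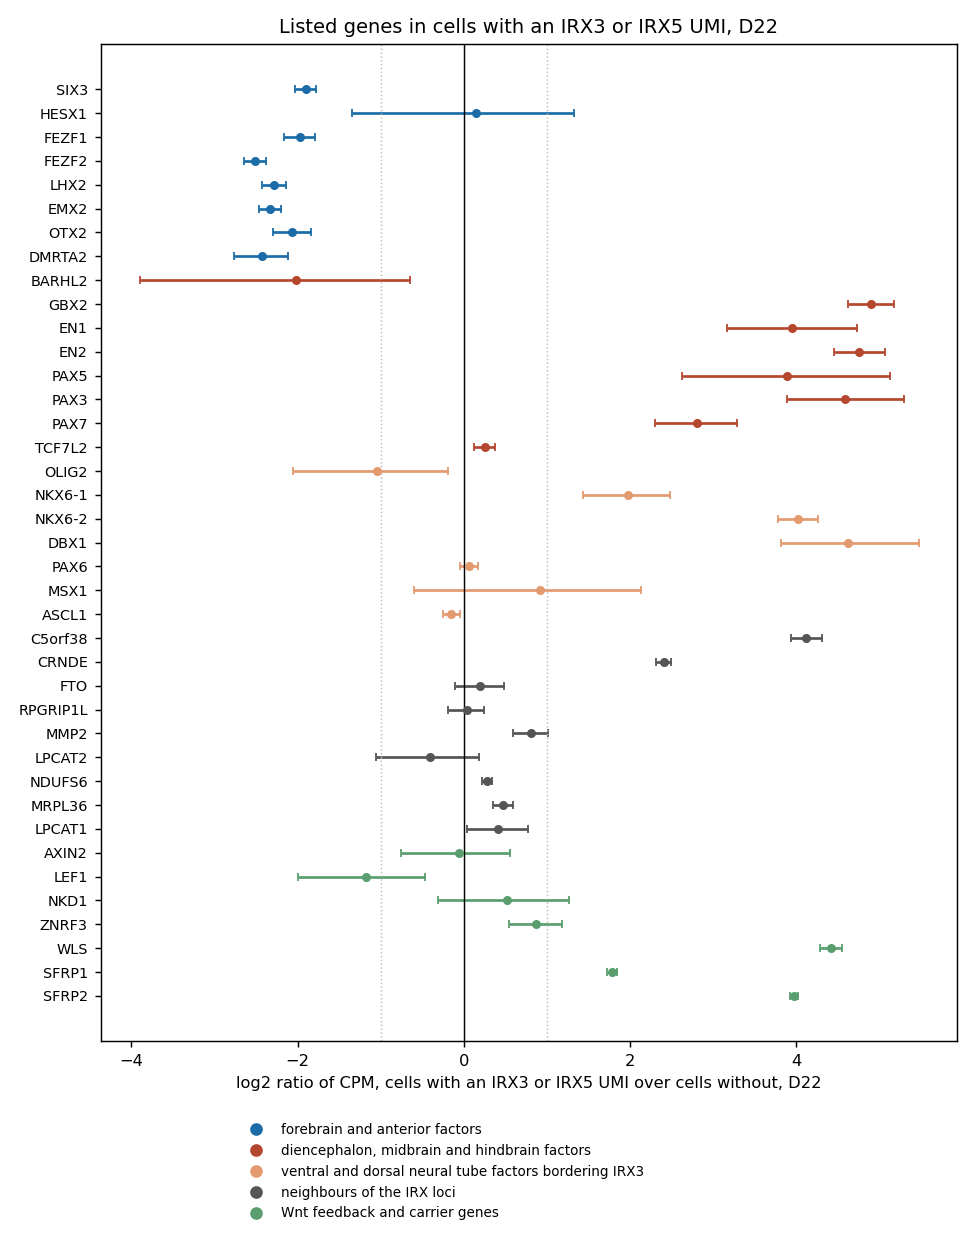
Log2 ratio of CPM of the listed genes reported here at D22 in cells with an IRX3 or IRX5 UMI against all other cells, coloured by list, with 95% counting intervals, a line at 0 and dotted lines at 2-fold. The forebrain factors shown other than HESX1 lie below the lower dotted line (median of the list -2.17), and GBX2 (4.90), EN2 (4.76), C5orf38 (4.12) and WLS (4.42) lie far above the upper one.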

How the data were processed

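The deposited files held counts of UMIs per gene and cell, made by the authors with Cell Ranger. The submitters' processing notes name Cell Ranger 3.1 and GRCh38, and the file headers give 3.1.0 for D22 to D26 and 6.1.2 for the pool. Cells were kept with the limits of the study's methods, which were 1500 UMIs, 1000 genes, a complexity over 0.82 and under 20% mitochondrial UMIs at D22 to D26, 10000 UMIs, 3000 genes and 10% mitochondrial UMIs at D5 and D10, and 30000 UMIs and 5000 genes at D0. Complexity was over 0.78 at D5 and 0.82 to 0.9 at D10. At D0 the limit of 0.85 was used as a maximum, since as a minimum it keeps 1 cell. For D5 and D10 the cell numbers the study states equal the barcodes in the files (2480, 2919, 2778 and 2638), and its limits left 2419, 2815, 2416 and 2168. The 5 pooled samples came as separate matrices, and in each 95.1% to 95.6% of tag counts were of the library's own tag. Doublets were kept. The 6% of cells with the highest doublet scores per library were marked and left out as an alternative. Columns of no sample numbered 0.

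UMIs were summed over cells and divided by the summed total (CPM), and ratios were given for genes with at least 20 UMIs over both groups, with exact Poisson or binomial intervals at 95%. Shares of cells had Clopper-Pearson intervals. A count of 0 was taken to allow up to 3 counts. Cells of D22 to D26 were clustered together (2000 variable genes, 30 principal components, 20 nearest neighbours, Leiden at resolution 0.5 with leidenalg 0.10.2). Scripts used Python 3.11.15, numpy 2.4.6, scipy 1.17.1 and scikit-learn 1.9.0 and were tested on simulated data. Named genes were the 6 members, SOX2, STMN2, the genes of the lists, and for each member the 3 genes most like it over cells and over groups of cells, among genes with a UMI in at least 50 cells of D22. The lists covered pathways, regions and cell types, pluripotent cells, endoderm and glia included. Of the listed genes 2 are counted in their lists but not reported here by name. The members and lists were chosen with earlier results of these data known.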

Additional observations from a re-analysis of the deposited data

Results flagged for a closer look

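The log2 ratio of IRX2 between the XAV939 and dSMADi samples had opposite signs at the 2 days, -0.24 at D5 and 0.78 at D10, a difference of 1.02. It was marked because each day had 1 library per arm and they moved opposite ways. The difference itself was not tested, as there were no replicate libraries.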

How the results depend on the processing

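No paired analysis was possible because each condition had 1 library and no replicate. Of the alternative values, 305 stayed within the counting interval, or within 1.5 times for shares of genes past 2-fold. Another 126 moved beyond that and 2 reversed. A reversal was counted only for log2 ratios whose interval did not hold 0. Other changes of sign, and co-detection ratios that fell below 1 inside a cluster, were not counted as reversed. The reversed ones were the log2 ratio of IRX3 between D26 and D24, -0.058 with median-ratio scaling and -0.069 with the mean of single-cell CPM. Leaving out marked doublets or changing the filter on cells moved no ratio between libraries. Without the cell with the most IRX3 UMIs, IRX3 stood at -1.74 at D10 (XAV939 against dSMADi). The co-detection ratios at D22, for IRX1 with IRX2, IRX1 with IRX3, IRX1 with IRX5, IRX2 with IRX3, IRX2 with IRX5 and IRX3 with IRX5, were 5.86, 11.5, 11.0, 6.33, 5.79 and 16.1 without depth bins, 11.2, 12.7, 6.27, 7.96, 11.7 and 25.4 in thinned cells, 2.47, 2.98, 2.87, 2.50, 2.30 and 3.41 in cluster 8 alone, and 1.13, 1.04, 1.01, 1.09, 1.03 and 1.36 in cluster 10 alone. With 2 UMIs required they were 11.4 for IRX1 with IRX2, 9.83 for IRX2 with IRX3, 8.89 for IRX2 with IRX5 and 18.3 for IRX3 with IRX5. In clusters 2 and 5 alone, IRX1 with IRX2 stood at 1.33 and 3.28.

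At D22 the log2 ratios for SOX2 were 1.29 (IRX1), 0.81 (IRX2), 1.34 (IRX3) and 0.91 (IRX5) in thinned cells, and 1.80 for IRX1 with 2 UMIs required. Those for STMN2 were -1.03 (IRX2), -1.56 (IRX3) and -3.13 (IRX5) in thinned cells, -1.59, -2.36 and -2.51 with 2 UMIs required, and -1.60 for IRX2 without marked doublets. The share of a member's UMIs in the cluster with its highest level, among clusters with at least 50 cells of the library, depended on the clustering. With each library clustered on its own it was 82.8% for IRX1, 64.0% for IRX2, 91.3% for IRX3 and 87.5% for IRX5 at D22, 81.2% for IRX1 and 46.0% for IRX2 at D24, and 87.2% for IRX5 at D26. At resolution 0.25 it was 80.3% for IRX1 and 46.0% for IRX2 at D24, and at resolution 1.0 it was 35.3% for IRX3 and 35.2% for IRX5 at D22. The percent of genes past 2-fold between XAV939 and dSMADi was 2.66% at D5 and 5.81% at D10 with a minimum of 100 UMIs, and 22.6% and 26.6% with a minimum of 1 UMI, with which it was 30.1% and 31.5% from D5 to D10 (XAV939 and dSMADi) and 31.4% from D24 to D26. The cause of these shifts was not tested. Low counts limit IRX4 and IRX6 in every library, and IRX1 and IRX5 at D0.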
